A study of Mus musculus with 6 samples.

Results

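The NADPH oxidase subunits are described here in B16-F1 and D5.1G4, 2 mouse melanoma cell lines whose RNA was measured on 6 one-colour Agilent microarrays, 3 for each line. The set holds 8 genes: Cyba, the catalytic subunit genes Nox1, Cybb and Nox4, the cytosolic organiser genes Ncf1 and Ncf4, and the GTPase genes Rac1 and Rac2. Every probe on the array whose accession maps to one of these symbols was taken, which gave 12 probes of 39429, in 8 genes of the 20659 with a probe. Both lines are labelled as untreated melanoma cells grown for 24 h in serum-containing RPMI-1640. B16-F1 is a line of the B16 melanoma of the C57BL/6 mouse, and for D5.1G4 no origin or genotype is given by the labels. The labels do not state whether a line was cultured separately for each array, so all spreads and p-values refer to these samples and may be technical.

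NADPH oxidases move electrons from NADPH across a membrane onto oxygen and so make superoxide or hydrogen peroxide. The catalytic NOX protein holds the haem and flavin groups, and NOX1, NOX2 (the product of Cybb) and NOX4 are each stabilised by p22phox, the product of Cyba. NOX1 and NOX2 need cytosolic organiser and activator proteins and a RAC GTPase, whereas NOX4 with p22phox is active without them. NOX2 is the oxidase of phagocytes, and NOX4 is found in many other cells, melanoma cells among them.

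The set was chosen by measured values, since the signals of Cyba on these arrays singled it out and the same signals decide which subunits count as present. The values of the 8 genes are therefore given as a description, without a test. Signal is the log2 of the processed intensity of a probe minus that of the 75th percentile of its array, so 0 is the level of that percentile. Signals of different probes cannot be compared with each other as amounts of RNA. A spot is called well above background by the flag that the scanner software sets. Where 3 values are listed for a line, they are those of replicates 1, 2 and 3 in that order.

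The stretches around the genes' starts are shown for the common subunit and for its catalytic partners NOX4 and NOX2, since the results turn on which of these gave a signal. RefSeq's promoter table for GRCm38.p6 held 5 of the 8 genes. Each stretch runs 5′ to 3′ on the gene's strand, and capitals mark a GC box (GGGCGG) or the core of the PU.1 site (GAGGAA) on either strand. The Cyba stretch lies at chr8:122432891-122433190 on the minus strand, that of Nox4 at chr7:87246399-87246698 on the plus strand and that of Cybb at chrX:9469275-9469574 on the minus strand.
Cyba: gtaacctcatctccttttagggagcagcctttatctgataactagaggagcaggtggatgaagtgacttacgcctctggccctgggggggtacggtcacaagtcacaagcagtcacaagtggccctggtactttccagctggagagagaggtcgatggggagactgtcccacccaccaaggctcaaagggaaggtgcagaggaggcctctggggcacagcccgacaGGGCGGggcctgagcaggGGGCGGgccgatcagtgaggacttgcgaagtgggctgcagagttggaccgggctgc
Nox4: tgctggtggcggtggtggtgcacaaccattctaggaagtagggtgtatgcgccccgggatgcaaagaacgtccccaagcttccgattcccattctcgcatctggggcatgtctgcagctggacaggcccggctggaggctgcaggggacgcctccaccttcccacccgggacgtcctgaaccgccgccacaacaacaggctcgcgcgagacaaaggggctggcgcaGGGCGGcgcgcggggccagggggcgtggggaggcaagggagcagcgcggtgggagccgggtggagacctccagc
Cybb: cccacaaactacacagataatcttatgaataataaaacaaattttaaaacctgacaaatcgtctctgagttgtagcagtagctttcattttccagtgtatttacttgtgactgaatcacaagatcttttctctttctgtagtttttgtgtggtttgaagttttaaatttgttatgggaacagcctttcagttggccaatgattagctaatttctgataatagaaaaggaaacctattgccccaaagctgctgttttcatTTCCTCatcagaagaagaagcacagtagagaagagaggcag
The Cyba stretch held 2 GC boxes and was 60.7% G and C with 9 CpG pairs, and the Nox4 stretch held 1 GC box and was 68.3% G and C with 24 CpG pairs. The Cybb stretch had 35.3% G and C, 1 CpG pair and 1 PU.1 core, which lay downstream of the gene's start. Of the stretches not shown, that of Nox1 was 38% G and C with 2 CpG pairs and held 1 PU.1 core and no GC box. That of Ncf1 was 54% G and C with 3 CpG pairs and held 1 GC box and no PU.1 core. The motifs thus do not divide the genes by detection or by phagocyte role. Over 32851 promoters of the same length, the median was 52.7% G and C with 7 CpG pairs, 35.7% held a GC box and 28.3% a PU.1 core. The E-box CACGTG (7.15% of promoters) and the M-box core CATGTG (14.2%), which melanocyte factors can bind, were in none of the 5 stretches. These letter matches describe the sequence and show no binding.

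The arrays had 53.4% to 62.0% of their spots well above background, and the highest values, 61.7% and 62.0%, were those of B16-F1 replicates 2 and 3. These arrays share a scan time (scan 1) that holds no D5.1G4 array. B16-F1 replicate 1 and D5.1G4 replicates 2 and 3 share another (scan 2), and D5.1G4 replicate 1 was scanned alone. Correlations across features, which are not independent replicates, were 0.983 to 0.990 within B16-F1, 0.986 to 0.993 within D5.1G4 and 0.941 to 0.957 between the lines. No spot was saturated. All 8 melanocyte markers on a list that includes Mitf, Sox10, Tyr and Pmel were well above background on every array of both lines.

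Cyba, which encodes the p22phox partner shared by the NOX proteins, had a signal on every B16-F1 array with both of its probes, and on no D5.1G4 array was either marked as clear of background. The brighter probe (A_55_P1979341) gave signals of 1.19, 1.34 and 0.96 in B16-F1 and of -4.91, -5.17 and -5.51 in D5.1G4. The dimmer probe (A_51_P131800) gave -1.71, -1.80 and -1.71 in B16-F1 and -7.20, -7.18 and -7.41 in D5.1G4. With either probe, all B16-F1 arrays were high, all D5.1G4 arrays were low and the lines did not overlap.

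On the linear scale, the processed intensity of the brighter Cyba probe was 3286, 3429 and 3945 in B16-F1 and 61.0, 23.3 and 21.5 in D5.1G4. Its mean signal was 1.16 ± 0.19 in B16-F1 (SD, n = 3) and -5.20 ± 0.30 in D5.1G4 (SD, n = 3), a measured log2 difference of 6.36. Since D5.1G4 gave no signal well above background, that difference has only a lower bound. A bound sets the mean of the line with signal against the higher, on each array of the other line, of the probe's own signal and the lowest signal of any probe well above background there. For the brighter Cyba probe the level in B16-F1 was at least 75.0-fold higher. For the dimmer probe it was at least 10.5-fold higher, with a measured difference of 5.53. Over the whole array, 1.51% of probes were above background on all 3 B16-F1 arrays and 0 D5.1G4 arrays, a share given for scale only, since the set was chosen for this pattern. The reverse pattern, shown by 0 member probes, was that of 0.591%. In scan 2, with a single B16-F1 array (replicate 1), the difference of the brighter probe was 6.53, and with normexp, used here for an alternative chosen after seeing the data that joins median-pixel signals, normexp background correction and an added offset of 50 intensity units, it was 4.46 and that of the dimmer probe 2.63.

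**Figure D1:**
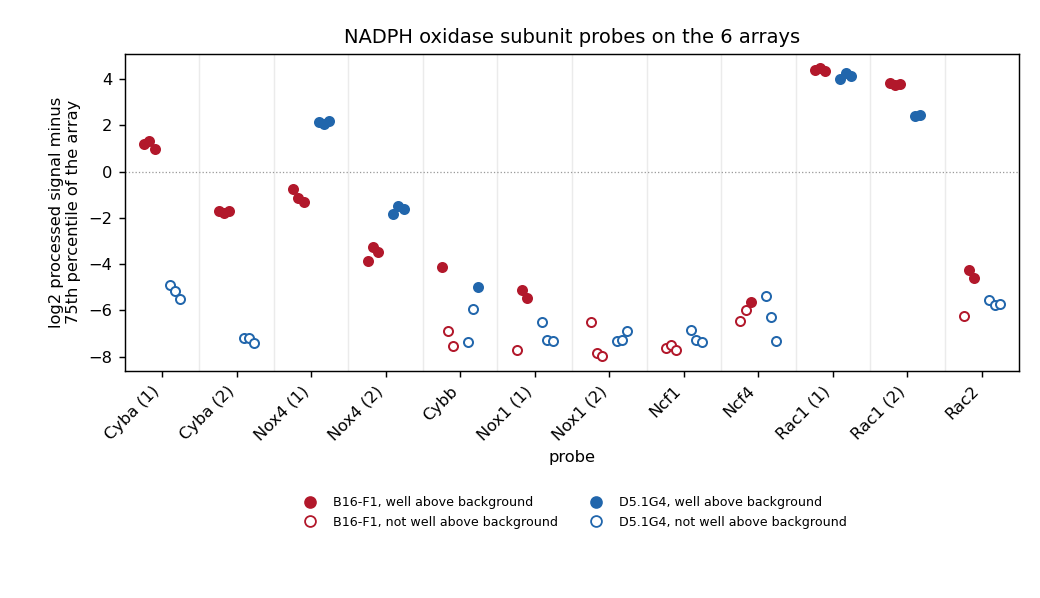
Signal of the 12 probes of the 8 NADPH oxidase subunit genes on each array (y axis: log2 processed signal minus the 75th percentile of the array, x axis: probe, with 1 the brighter and 2 the dimmer probe of a gene). Each point is 1 array, replicates 1 to 3 from left to right, red for B16-F1 and blue for D5.1G4, filled where well above background. Both Cyba probes are filled in B16-F1 only, both Nox4 probes are filled in both lines and higher in D5.1G4, and the Cybb, Nox1, Ncf1, Ncf4 and Rac2 probes lie low with mostly open points.

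Nox4, the catalytic subunit that works with p22phox alone, was the catalytic member above background on every array of both lines, and its signal was higher in D5.1G4, the line without a Cyba signal. The brighter Nox4 probe (A_55_P1972040) gave -0.76, -1.15 and -1.30 in B16-F1 and 2.15, 2.06 and 2.17 in D5.1G4. The dimmer probe (A_51_P369311) gave -3.85, -3.28 and -3.49 in B16-F1 and -1.83, -1.47 and -1.63 in D5.1G4. Every array of both lines was well above background with both probes, all D5.1G4 arrays were above all B16-F1 arrays, and the smallest gap between the lines was 2.83 for the brighter and 1.45 for the dimmer probe.

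The Nox4 means of the brighter probe were -1.07 ± 0.28 in B16-F1 (SD, n = 3) and 2.13 ± 0.06 in D5.1G4 (SD, n = 3), so its measured level was 9.17-fold higher in D5.1G4. The dimmer probe had means of -3.54 ± 0.29 and -1.64 ± 0.18 (SD, n = 3 each), a level 3.72-fold higher in D5.1G4. The probes agree on which line was higher, while the size of the difference depended on the probe. On the linear scale the brighter Nox4 probe read 612 to 850.0 in B16-F1 and 3505 to 8119 in D5.1G4. Within scan 2 the differences, B16-F1 minus D5.1G4, were -2.88 and -2.30 for the brighter and the dimmer probe. With normexp the dimmer probe's difference was -1.15.

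Cybb, the catalytic subunit of the phagocyte oxidase, was near background in both lines. Its single probe gave -4.11, -6.88 and -7.55 in B16-F1 and -7.37, -5.95 and -4.98 in D5.1G4. It was well above background on 1 array of each line, B16-F1 replicate 1 and D5.1G4 replicate 3, and the lines overlapped. The means were -6.18 ± 1.82 and -6.10 ± 1.20 (SD, n = 3 each), a difference of -0.08 that is smaller than either spread. Both arrays with a Cybb signal belong to scan 2, whose other array was at -5.95. Without the arrays of scan 1 the difference was 1.99 with B16-F1 replicate 1 alone on its side.

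Nox1, the catalytic subunit best known from the colon, was not detected with 1 of its probes on any array. That probe (A_51_P364714) lay between -7.98 and -6.49 in B16-F1 and between -7.32 and -6.87 in D5.1G4. The other (A_55_P1997906) gave -7.72, -5.11 and -5.48 in B16-F1 and -6.49, -7.27 and -7.32 in D5.1G4. It was well above background only on B16-F1 replicates 2 and 3, the arrays of scan 1, where its linear intensity was 39.3 and 45.6. On B16-F1 replicate 1 it was lower than on every D5.1G4 array, so the lines overlapped, and the part of the scan in this signal was not tested.

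The organisers of the phagocyte oxidase were at or near background. Ncf1, which encodes p47phox, the protein that on phosphorylation brings the cytosolic subunits to the membrane, was not well above background on any of the 6 arrays. Its probe ranged from -7.70 to -7.48 in B16-F1 and from -7.34 to -6.86 in D5.1G4, so every D5.1G4 value was above every B16-F1 value, by a smallest gap of 0.14. As none of these values was well above background on any array, no order of the lines is read from them.

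Ncf4, which encodes p40phox, a lipid-binding subunit of the same complex, was well above background on 1 array, B16-F1 replicate 3. The Ncf4 probe gave -6.47, -5.99 and -5.64 in B16-F1 and -5.35, -6.30 and -7.31 in D5.1G4. The signal that was marked, -5.64 on B16-F1 replicate 3, is lower than one that was not marked, -5.35 on D5.1G4 replicate 1. The lowest marked signal of any probe was -6.17 on the former array and -5.10 on the latter. The flag thus does not pass the same signals on both arrays. The lines overlapped for Ncf4.

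Rac1, the ubiquitous GTPase that activates NOX1 and NOX2 among its many roles in the cytoskeleton, was present in both lines. The brighter probe (A_55_P2076489) gave 4.39, 4.47 and 4.35 in B16-F1 and 4.00, 4.27 and 4.14 in D5.1G4. The difference was 0.27, and the nearest arrays of the lines were 0.08 apart. The dimmer probe (A_51_P513254) gave 3.84, 3.76 and 3.79 in B16-F1 and 2.41 and 2.45 on D5.1G4 replicates 1 and 2. Its spot on D5.1G4 replicate 3 was marked as an outlier and left out, and read 2.65 where it was kept. By the dimmer probe Rac1 was 2.58-fold higher in B16-F1 and by the brighter 1.20-fold, so its probes disagree on the size of the difference. The difference with the brighter probe ran from 0.07 with normexp to 0.43 with quantile normalization.

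Rac2, the RAC protein of blood cells, gave low signals, the highest of them on the arrays of scan 1. Its single probe is printed as 10 spots on each array, of which 8 to 10 were kept. All kept spots were well above background on B16-F1 replicates 2 and 3, 9 of 9 and 10 of 10, and 0 on each of the other arrays. The mean over spots was -6.26, -4.25 and -4.60 in B16-F1 and -5.55, -5.75 and -5.74 in D5.1G4. B16-F1 replicate 1 was thus below every D5.1G4 array and the other B16-F1 arrays above them. The difference between the lines was 0.65 over all arrays and -0.51 within scan 2, so its sign depends on the arrays of scan 1.

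**Figure D2:**
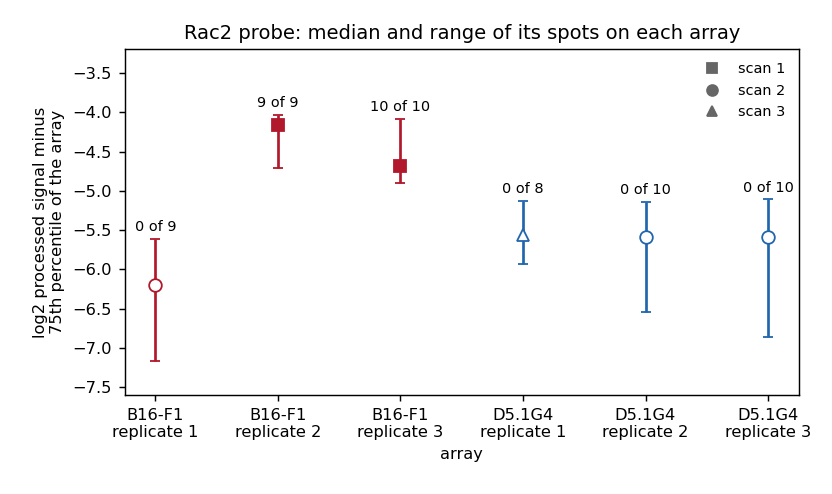
Signal of the Rac2 probe on each of the 6 arrays (y axis: log2 processed signal minus the 75th percentile of the array, x axis: array). Symbols are the median over the spots kept, bars run from the lowest to the highest spot, symbol shape gives the scan, filled symbols and the counts show spots well above background. The B16-F1 arrays of scan 1 have medians of -4.16 and -4.68, and the other 4 arrays lie between -6.20 and -5.56 with 0 spots above background.

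Counted by gene, 3 of the 8 members were well above background on all 3 B16-F1 arrays with at least 1 probe (Cyba, Nox4 and Rac1) and 2 on all 3 D5.1G4 arrays (Nox4 and Rac1). Counted by probe, 6 of 12 were above background on all 3 B16-F1 arrays (51.4% of all probes) and 3 of 12 on all 3 D5.1G4 arrays (48.2%), the dimmer Rac1 probe being left out there for its missing spot. Further, 3 of 12 were above background on all 6 arrays, where 46.2% of all probes were, and 2 of 12 (1 probe of Nox1 and the Ncf1 probe) on 0 arrays, as were 32.8% of all probes. The 2 probes above background on exactly the arrays of scan 1, 1 of Nox1 and that of Rac2, compare with 3.75% of all probes. Of the 11 member probes measured on every array, 6 did not overlap between the lines, beside 51.6% over all probes, and nothing is read from that share. If a signal on 1 array is enough, 7 members were detected in B16-F1, all but Ncf1, and 3 in D5.1G4 (Nox4, Cybb and Rac1). Nox1, Ncf4 and Rac2 were above background on scan 1 arrays only. The lowest signal of any probe above background was -5.73 and -6.17 on those arrays and -5.10, -5.09 and -5.21 on the D5.1G4 arrays. The share of all genes under this looser rule was not computed, so nothing is read from these counts. Without B16-F1 replicate 1, Nox1 and Rac2 were added and B16-F1 had 5. Cyba, Nox4 and Rac1, 3 of 8 members, were those that passed the filter of a signal on at least 3 arrays that the comparison across all features used.

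The other subunits and assembly genes of the family were not called different between the lines. Of 16 genes on this list, 14 had a probe, 11 were tested and 0 were called by limma, which took an adjusted p of at most 0.05 together with at least a 2-fold difference, where 15.2% of all 18442 features were called. At an unadjusted p under 0.05 there were 4. The median difference of the list was 0.08, beside 0.00 over all features tested.

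Among catalytic subunits outside the set, Nox3, the oxidase of the inner ear, was not above background on any array, and Duox1, a dual oxidase that makes hydrogen peroxide, was above background on all 6 with means of -3.45 ± 0.17 in B16-F1 and -3.43 ± 0.23 in D5.1G4 (SD, n = 3 each). Duoxa2, a maturation factor of the dual oxidases, was not above background on any array with either probe. Duox2 and Duoxa1, also listed, had no matched probe and so were not measured. Cybc1, a chaperone that NOX2 and p22phox need to be made, was above background on every array, with means of 2.10 ± 0.07 and 2.02 ± 0.16 (SD, n = 3 each), and differed by 0.08 (SE 0.12, adjusted p = 0.642).

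The organiser and activator of the NOX1 type were above background on every array in both lines, while the phagocyte organiser Ncf1 was above it on none. Noxo1, the organiser related to p47phox, gave -2.27, -2.18 and -2.55 in B16-F1 and -2.85, -2.77 and -2.37 in D5.1G4, and the lines overlapped. Its difference was 0.33 (SE 0.18, adjusted p = 0.2). Noxa1, the activator that works with NOX1, gave -3.50, -3.64 and -4.01 in B16-F1 and -4.75, -4.22 and -3.98 in D5.1G4, a difference of 0.60 (SE 0.24, adjusted p = 0.104).

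Of the GTPases outside the set, Rac3 had means of -2.13 ± 0.42 and -1.90 ± 0.12 (SD, n = 3 each), Rap1b differed by -0.31 (SE 0.12, adjusted p = 0.0961), and Rap1a by -0.84 (SE 0.43, adjusted p = 0.181). Rap1a was above background on 2 arrays of each line, and without D5.1G4 replicate 2 it was called lower in B16-F1 (-1.30, adjusted p = 0.0203, range over the alternatives 0.0203 to 0.914). Sh3pxd2b, the scaffold Tks4 and a relative of p47phox, differed by -0.49 (adjusted p = 0.075). Its relative Sh3pxd2a was above background only on the scan 1 arrays B16-F1 replicates 2 and 3 and was not tested.

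Hvcn1, the proton channel that lets an active oxidase balance charge, was the gene of this list with an adjusted p under 0.05, at a difference of 0.87 (SE 0.13, adjusted p = 0.0042), short of the minimum fold. It gave 3.98, 4.02 and 3.70 in B16-F1 and 2.94, 3.13 and 3.03 in D5.1G4, higher in all B16-F1 arrays, and a further probe differed by 0.74. P4hb, a disulphide isomerase that binds p22phox, differed by 0.29 (adjusted p = 0.122). Poldip2, a p22phox-binding protein that raises NOX4 activity, differed by 1.12 (SE 0.63, adjusted p = 0.222), a value that rests on B16-F1 replicate 2 at 5.26, since the other B16-F1 arrays were at 3.02 and 2.92 and the D5.1G4 arrays between 2.36 and 2.76. Without that array the difference was 0.36.

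**Figure D3:**
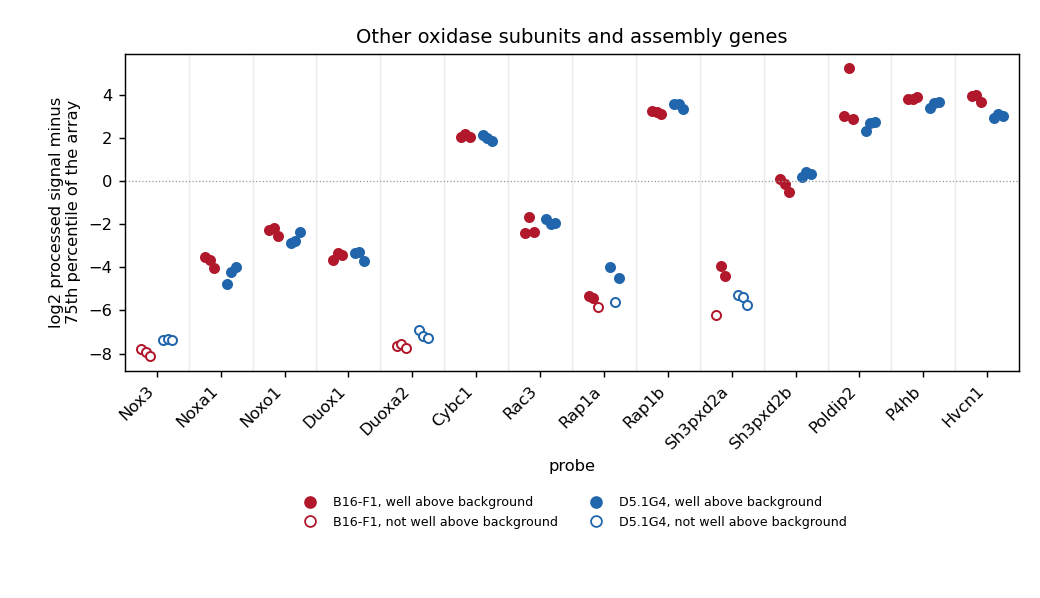
Signal of the 14 other oxidase subunit and assembly genes with a probe, by the brightest probe of each gene (y axis: log2 processed signal minus the 75th percentile of the array, x axis: gene). Points are arrays, replicates 1 to 3 from left to right, red for B16-F1 and blue for D5.1G4, filled where well above background. Noxa1, Noxo1, Duox1 and Cybc1 are filled on all arrays and overlap between the lines, and Nox3 and Duoxa2 are open throughout.

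Regulators of RAC and kinases that phosphorylate the cytosolic subunits were called in both directions. Of 22 genes listed 14 were tested, 1 rose and 3 fell in B16-F1 relative to D5.1G4 (6.28% and 8.89% over all features tested), and the median difference was -0.12. Prkcd, protein kinase C delta, which phosphorylates p47phox, rose by 1.67 (SE 0.27, adjusted p = 0.0054), from signals between -2.01 and -0.92 in D5.1G4 to between 0.22 and 0.32 in B16-F1. Its other probe differed by 1.33. The Prkcd call was lost within scan 2 (1.78, adjusted p = 0.0824) and without the arrays of scan 1 (1.72, adjusted p = 0.0796). Over all alternatives its adjusted p ran from 0.00134 to 0.0824.

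Prex2, an exchange factor that activates RAC, fell by 2.39 (SE 0.21, adjusted p = 0.000526), with B16-F1 arrays between -4.11 and -3.47 and D5.1G4 arrays between -1.65 and -1.21. Racgap1, a GTPase-activating protein for RAC that is best known from cytokinesis, fell by 1.36 (SE 0.22, adjusted p = 0.00537), and by the same amount with its other probe. Prkcz, protein kinase C zeta, fell by 1.07 (SE 0.13, adjusted p = 0.00174), where another probe differed by -2.52 and the last of its probes was not above background. With normexp the calls of Prex2 (-1.46, adjusted p = 0.103) and Prkcz (-0.49, adjusted p = 0.516) were lost. Racgap1 lost its call without the arrays of scan 1 (-1.08, adjusted p = 0.0986). Over the alternatives the adjusted p ran from 0.000156 to 0.103 for Prex2, from 0.00105 to 0.0986 for Racgap1 and from 0.000739 to 0.516 for Prkcz.

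The exchange factors Vav1, Vav2, Vav3, Prex1 and Dock2 were not above background on any array, nor were Arhgap15 and Prkcb, a protein kinase C gene. Pak1 was above background on 1 B16-F1 array and no D5.1G4 array. Tiam1, a RAC exchange factor of many tissues, was higher on all B16-F1 arrays but missed the minimum fold, with a difference of 0.80 (SE 0.16, adjusted p = 0.01). Arhgdia, the inhibitor that holds RAC in the cytosol, had means of 5.93 ± 0.13 and 6.15 ± 0.17 (SD, n = 3 each) and differed by -0.21 (adjusted p = 0.278). Arhgdib, on the same list, was above background on every array of both lines with both of its probes. Its means were 2.75 in B16-F1 and 2.20 in D5.1G4, a difference of 0.55 (adjusted p = 0.0529), and its dimmer probe differed by 0.94.

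Of 13 genes that handle superoxide and hydrogen peroxide 10 were tested and 1, Sod3, was called. Sod3, the superoxide dismutase secreted from cells, fell by 2.50 in B16-F1 (SE 0.19, adjusted p = 0.000338), with signals of -2.36, -2.42 and -2.90 in B16-F1 and of -0.14, -0.19 and 0.16 in D5.1G4. All D5.1G4 arrays were above all B16-F1 arrays for Sod3. As 51.6% of all probes measured on every array did not overlap between the lines in 1 direction or the other, nothing is read from that order. Sod2, the mitochondrial enzyme, differed by -0.89 (SE 0.12, adjusted p = 0.00283) and the peroxiredoxins Prdx2 and Prdx6 by -0.60 (adjusted p = 0.0314) and -0.59 (adjusted p = 0.0102), all under the minimum fold. Sod1, the cytosolic enzyme, differed by -0.31 (adjusted p = 0.178). Catalase (Cat), which breaks down hydrogen peroxide, differed by 0.48 (adjusted p = 0.0793) with its brighter probe and by 1.52, without overlap between the lines, with the other, which was not tested. The median of this list was -0.36. Over the 3 pathway lists together 5 of 35 tested genes (14.3%) were called, close to the 15.2% over all features.

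**Figure D4:**
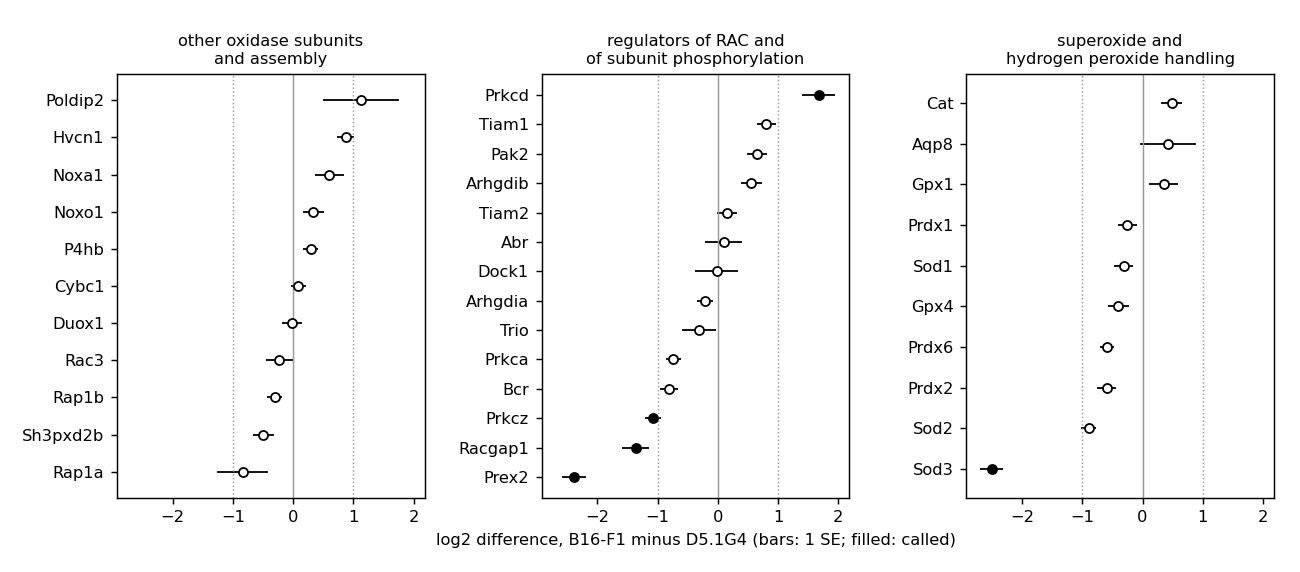
Log2 difference, B16-F1 minus D5.1G4, of the tested genes of the 3 pathway lists (x axis), with 1 gene per line and bars of 1 SE from limma (n = 3 arrays in each line). Filled points are called genes, and the dotted lines mark the minimum fold of 2. Prkcd lies at 1.67, Prex2 at -2.39 and Sod3 at -2.50, and all points of the list of other subunits are open.

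The genes whose signals ran most like those of the brighter Cyba probe across the 6 arrays, after each was centred on its own mean, were Lgals3, Ldhd, F11r, Gpm6b and Qpct, out of 12048 genes ranked. The root mean square distance from Cyba was 0.21 log2 units for Lgals3, 0.22 for Ldhd, 0.27 for F11r and 0.30 for Gpm6b and Qpct. Of these, Lgals3, the galectin-3 gene, and Qpct, a glutaminyl cyclase gene, were above background in D5.1G4 too, while Ldhd, F11r and Gpm6b were not, as Cyba. With 3 arrays on each side this likeness mostly restates the size of the measured difference. The D5.1G4 values of Cyba, Ldhd, F11r and Gpm6b were not well above background, so the order of these genes rests partly on values with no firm level, and the dimmer Cyba probe itself lay at 0.45, farther than all 5.

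The genes beside Cyba on chromosome 8 were not called. Of the 4 nearest protein-coding genes with a probe on each side, a set taken after the Cyba values were seen, 6 of 8 were tested and 0 were called by limma, where 15.2% of all features were called. At an adjusted p under 0.05 without the minimum fold were Rnf166 (0.72, adjusted p = 0.00494) and Ctu2 (-0.38, adjusted p = 0.0445). Mvd and Zc3h18 were above background on every array and differed by 0.54 (adjusted p = 0.0833) and 0.16 (adjusted p = 0.469), and Il17c and Snai3 were not above background on any. Next to Nox4 on chromosome 7 lies Tyr, the tyrosinase gene, which differed in the other direction from Nox4, by 0.78 (SE 0.13, adjusted p = 0.00578). Its other probe, which was not tested, differed by 1.64 without overlap between the lines. Of the 8 neighbours of Nox4, 4 were tested and 1, the cathepsin C gene Ctsc, was called, by -1.40 (adjusted p = 0.000491). Rab38 differed by -0.58 (adjusted p = 0.0255), under the minimum fold, and Grm5 by 0.07 (adjusted p = 0.865).

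Markers of other cells were checked because Cybb, Ncf1, Ncf4 and Rac2 are genes of phagocytes. Of 17 phagocyte markers with a probe, 9, 10 and 10 were above background in B16-F1 and 7 on each D5.1G4 array. Their summed linear signal, relative to the 75th percentile of the array, ran from 3.14 to 4.52 in B16-F1 and from 3.32 to 4.49 in D5.1G4. Elane, the neutrophil elastase gene, and the integrin gene Itgam made up most of that sum on every array. Elane had means of 0.71 ± 0.12 and 1.08 ± 0.08 and Itgam of -0.41 ± 0.96 and -0.41 ± 0.82 in B16-F1 and D5.1G4 (SD, n = 3 each). The Itgam values are those of its brightest probe. Its other probes were far dimmer, with means of -4.85 and -4.12 for A_55_P1977926 and of -5.89 and -6.22 for A_55_P1977929. Itgb2, Csf1r, Fcer1g and Coro1a were also above background on all 6 arrays. Adgre1, by its brighter probe, was above background on 3 B16-F1 and 2 D5.1G4 arrays, and Tyrobp on 3 and 1. Spi1, the factor that defines the myeloid lineage, and Lyz2, Fcgr1, Laptm5, Mpo, S100a8 and S100a9 were not above background on any array. Ptprc, the common leukocyte antigen, was above background only on B16-F1 replicates 2 and 3, the same arrays as Rac2. Fcer1g (1.86) was called higher and Coro1a (-1.44) lower in B16-F1. Cd14 also met the criteria of the call (1.55), but it was above background on the B16-F1 arrays only, and its bound was at least 1.35-fold higher there, short of the minimum fold. The part of these markers in the signals of the phagocyte subunits was not tested. Of the lymphocyte list, 2 to 4 of 7 were above background on B16-F1 arrays and 1 or 2 on D5.1G4 arrays, and its summed signal was 0.76 to 1.01 and 0.33 to 0.36. Lck was the gene of this list that was called, higher in B16-F1 by 4.26 (adjusted p = 3.83e-05), with means of -0.83 in B16-F1 and -5.09 in D5.1G4. Cd3e differed by 0.04 (adjusted p = 0.937), and Cd3g, Cd2 and Ms4a1 were not above background on any array. Fibroblast markers numbered 0 or 1 of 6 on every array and endothelial markers 2 of 5.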

How the data were processed

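The deposited scanner files hold spot intensity on a linear scale from Agilent Feature Extraction 11.0.1.1, per the file headers, which also give the mm9 annotation. The processed intensity had background and trends within the array removed, and no step between arrays. The authors' deposited value table is on a log2 scale for 22147 probes, with a median of 9.71 in every column, and its normalization is not stated there. It served as an alternative, as did the deposited median-pixel intensities after normexp background correction with an offset of 50. Flags of 0 or 1 for outlier spots and signal above background are as deposited, per the file headers.

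Non-control spots (43020) were put on log2 and scaled to the 75th percentile of their array. Flagged spots (0.674% to 1.58%) were left out and spots of a probe averaged. A probe counts as above background on an array where at least as many of its kept spots carry the flag as lack it. Accessions without version were matched to RefSeq's GRCm38.p6 gene table, and 27234 probes had 1 gene. The table gave names, chromosomes and gene order. The brightest probe stood for a gene in the comparison, and features with a signal above background on 3 or more arrays were tested. The comparison used limma 3.58.1 in R 4.3.3 (lmFit and eBayes, line as the only term, 2-sided, Benjamini-Hochberg over all features). Adjusted p-values in the text are from this test with n = 3 arrays in each line, and differences are B16-F1 minus D5.1G4. The fit was tested on simulated data.

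The members and lists were chosen with earlier results of these data known. Named are all members, the list of other subunits, up to 4 called genes with the largest difference from each other pathway list, and the 5 genes most like Cyba. A gene listed among the other subunits is not reported here and was left out of that list's counts. Other names complete a count or were chosen as examples with their values known. The number of arrays limits the precision. Replicate numbers do not pair the arrays: the deviations of same-numbered arrays from their line's mean correlated at -0.39, -0.03 and -0.30 across features, which are not independent.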

Additional observations from a re-analysis of the deposited data

How the results depend on the processing

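The differences of both Cyba and both Nox4 probes kept their direction under every alternative run. For the brighter Cyba probe the value was 4.46 with normexp and 5.94 with the mean over its probes, and between 6.20 and 6.53 otherwise, with 6.20 to 6.50 when 1 array was left out. With normexp 1255 features and 3 pathway genes were called in place of 2799 and 5. That alternative changed the signal column and the background correction and added an offset of 50, which by construction lowers differences of dim probes, and which of these steps moved the counts was not tested. Leaving out 1 array gave 2532 to 3375 features and 5 or 6 pathway genes. Members detected in B16-F1 numbered 7 when 1 array sufficed and 3 to 5 when 1 array was left out, 5 without B16-F1 replicate 1. Members detected in D5.1G4 stayed at 2 when 1 array was left out. With the replicate block, where the numbers do not pair the arrays, 2584 features and 5 pathway genes were called, Cyba differed by 6.36, and no array correlated best with its own number. With the scan as a random block 2755 features and 5 pathway genes were called. Normexp on the mean signal was not run, and the median signal was used instead, chosen after seeing the data, as was leaving out the arrays of scan 1. Signals of Cybb, Nox1, Ncf1, Ncf4 and Rac2 near background are limited by signal over background, not by the test.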
